A study of Mus musculus with 14 samples.

Results

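The regions described are the E14 H3K27ac peaks that lie at bidirectional protein-coding promoters of the mouse retina. A divergent pair was defined from GENCODE vM1 on mm9 as 2 protein-coding genes of chromosomes 1 to 19 on opposite strands, whose transcription start sites (TSSs) lie at most 1000 bp apart with the minus-strand TSS on the left, so that the genes are read away from each other. A peak was a member if it overlapped the interval between both TSSs extended by 500 bp on either side. Of the 13463 peaks of the list, 703 (5.22%) were members, and they lay at 718 of 789 divergent pairs. The pairs held 1562 of the 21418 protein-coding genes (7.29%), and 32 pairs shared a gene record with another pair.

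The study examined how the transcription factor LHX2 acts on chromatin in retinal progenitor cells (RPCs), and mapped H3K27ac as a mark of active regulatory sequence. The peaks came from retinas of CD1 mice at embryonic day 14. The title and characteristics of this sample name no Lhx2 allele or Cre, while the treatment label, shared by all samples of the series, names conditional Lhx2 knockouts. The labels name the cells as RPCs, whereas the study's methods state that chromatin for ChIP came from whole dissected retinas, which also hold postmitotic neurons. Of 12 marker genes of retinal progenitors, among them Pax6, Rax and Lhx2, 12 had a peak within 500 bp of the TSS, against 0 of 8 of the retinal pigment epithelium, 1 of 8 of lens (Bfsp1), 1 of 8 of blood and endothelium (Kdr) and 0 of 6 of muscle and liver. Over all protein-coding gene starts this share was 47.4%. No markers of postmitotic retinal neurons were counted, so these counts cannot tell RPCs from whole retina. The reads of 2 replicate libraries had been pooled before 1 list of broad peaks was called against 1 isotype control, so that no peak has a replicate error and no difference could be tested over samples. The list rests on 113543038 ChIP tags and 9210563 control tags after filtering, or 12.3 ChIP tags for each control tag. Shares are given with 95% Wilson intervals and medians with 95% order-statistic intervals. These cover counting error only, and neighbouring promoters are not independent.

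At a bidirectional promoter a short stretch of DNA drives transcription in both directions, each direction from its own core promoter. In mammals such promoters usually lie in CpG islands, lack a TATA box, and often serve housekeeping genes such as those of DNA repair and mitochondria. H3K27ac, the acetylation of lysine 27 of histone H3, is placed by p300 and CBP on nucleosomes that flank active promoters and enhancers, while the start site itself is often free of nucleosomes.

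The sequence that lies between the start sites is given here for some of the pairs. Only pairs with close TSSs were eligible, so the stretches do not show how long such regions are in general. The following stretches are the whole of the sequence between the annotated TSSs on the plus strand of mm9, 5′ to 3′, with the minus-strand gene named first. The capitals mark a match, on either strand, to 1 of 8 words that were searched. The first is the box known to be bound by the trimeric factor NF-Y, written CCAAT on one strand and its reverse complement on the other. The second is the GC box of the Sp family of factors, spelled GGGCGG. The third is the core of the sites of the ETS family, spelled CCGGAAG. The others are GCGCATGCG, the palindrome-like site of the factor NRF1, TATAAA, the TATA box of focused core promoters, TGACGTCA, the cyclic AMP response element (CRE), AAGATGGCG, the site of the factor YY1, and ACTACAACT, the element of the factor ZNF143. The first stretch belongs to the member peak with the highest fold enrichment, the second to another of the 5 highest, the third to a textbook pair, the fourth to the second longest peak, the fifth to a histone pair and the sixth to a pair without a peak.
Recql/Golt1b, chr6:142335608-142335740: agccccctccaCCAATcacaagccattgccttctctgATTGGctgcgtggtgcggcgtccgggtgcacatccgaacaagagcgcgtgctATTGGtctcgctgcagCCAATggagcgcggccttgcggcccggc
Slc39a7/Rxrb, chr17:34168636-34168756: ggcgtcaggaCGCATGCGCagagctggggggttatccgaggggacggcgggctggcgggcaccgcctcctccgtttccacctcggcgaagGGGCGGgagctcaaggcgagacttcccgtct
Mrps12/Sars2, chr7:29526840-29527009: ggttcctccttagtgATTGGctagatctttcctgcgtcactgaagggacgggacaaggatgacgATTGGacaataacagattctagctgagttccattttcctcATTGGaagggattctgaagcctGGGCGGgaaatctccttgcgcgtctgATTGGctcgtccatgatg
Nr2e1/Ostm1, chr10:42303439-42303627: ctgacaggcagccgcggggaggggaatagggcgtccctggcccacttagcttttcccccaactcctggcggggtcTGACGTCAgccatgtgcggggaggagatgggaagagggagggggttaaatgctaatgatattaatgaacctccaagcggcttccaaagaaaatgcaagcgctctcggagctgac
Hist1h2ac/Hist1h2bc, chr13:23775818-23776067: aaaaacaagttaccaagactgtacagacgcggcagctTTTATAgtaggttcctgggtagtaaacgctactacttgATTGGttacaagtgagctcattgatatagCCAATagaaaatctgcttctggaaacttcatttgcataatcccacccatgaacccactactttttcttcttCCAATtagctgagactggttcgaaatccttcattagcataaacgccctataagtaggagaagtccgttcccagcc
Pex11a/Wdr93, chr7:86888018-86888048: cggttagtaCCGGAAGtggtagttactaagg
The Recql/Golt1b and Mrps12/Sars2 stretches hold 4 CCAAT boxes each, in both orientations in the former and in a single orientation in the latter. The Slc39a7/Rxrb stretch is 71.1% GC and holds the NRF1 word and a GC box. The Nr2e1/Ostm1 stretch holds a full CRE, and the histone pair holds a TATA word beside 3 CCAAT boxes. The Pex11a/Wdr93 stretch has no peak but carries the ETS word within 31 bases. A match is a description of the letters and not evidence that a factor binds.

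The pairs were close. The TSS distance had a median of 141 bp (interval 128 to 152) and quartiles of 73.0 and 271 bp, and its extremes were 1 and 987 bp. In all, 292 pairs were at most 100 bp apart, 219 were further apart but within 200 bp, and only 81 were more than 500 bp apart.

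An E14 H3K27ac peak was present at 91.0% of the divergent pairs (718 of 789, interval 88.8 to 92.8%). Over all protein-coding gene starts, the background, a peak within 500 bp was found at 47.4%. Single TSSs, defined as protein-coding starts with no other protein-coding start within 1000 bp, had a peak at 7912 of 18781, or 42.1% (interval 41.4 to 42.8%). The pairs therefore exceeded the single TSSs by 48.9 percentage points (95% Newcombe interval 46.6 to 50.8). The window of a pair is wider than that of a single TSS by the TSS distance. When each gene of a pair was given its own window of 500 bp on either side, 1408 of 1562 genes (90.1%) had a peak. With stricter limits, a fold enrichment of at least 4 and q of at most 0.001, the share was 73.3% of the pairs and 31.6% of the single TSSs, against a background of 36.1% of all starts. Both limits are among those the study used for high-confidence peaks, but here they were applied to values averaged over each peak of the pooled list, without its other criteria such as recovery in replicates.

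Other arrangements of neighbouring starts were compared. Genes on opposite strands whose 5′ ends overlap, so that the plus-strand TSS lies to the left, had a peak at 363 of 410 places (88.5%). Neighbouring starts on the same strand had one at only 78 of 159 (49.1%, interval 41.4 to 56.8%), which is close to the background. Opposite-strand pairs beyond the limit, at most 2000 bp apart, had one at 85 of 115 (73.9%). Within the limit the share was 92.5% up to 100 bp, 89.5% above 100 and up to 200 bp, 94.6% up to 300 bp, 89.5% up to 500 bp and 86.4% up to 1000 bp, and the intervals of these 5 classes overlapped.

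**Figure D1:**
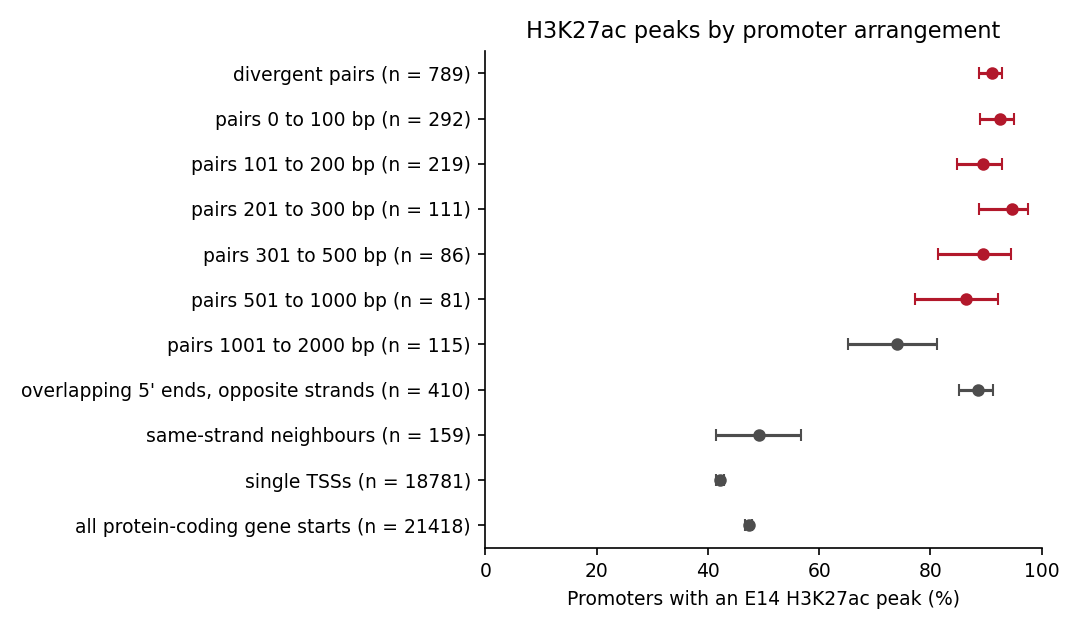
The share of promoters with an E14 H3K27ac peak (%) is plotted for each arrangement of TSSs, with red points for divergent pairs and grey points for other starts; bars are 95% Wilson intervals. The 5 distance classes of divergent pairs lie between 86.4% and 94.6%, while same-strand neighbours (49.1%) lie near all gene starts (47.4%).

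Base composition differed between the classes. Over 500 bp on either side of the single TSS or of the midpoint of the pair, the median GC content of the pairs was 60.3% (interval 59.8 to 60.9) against 54.0% at single TSSs, and the median CpG observed over expected, the count of CpG relative to that from the C and G content, was 0.778 against 0.491. Single TSSs with a peak resembled the pairs, with medians of 60.4% and 0.763. Compared at like composition, the gap was smaller where GC content was high. Between 50 and 55% GC a peak was present at 85.7% of pairs and 35.3% of single TSSs, between 60 and 65% at 94.3% and 76.6%, and between 70 and 75% at 97.6% and 87.8%. In this last class the difference of 9.77 points had an interval of -0.636 to 13.1 and could not be told from 0. By CpG observed over expected, the shares were 76.7% and 39.9% from 0.4 to 0.6, 92.5% and 77.1% from 0.6 to 0.8, and 99.7% (315 of 316) and 91.2% from 0.8 to 1.0. From 1.0 to 1.2 a peak was at 28 of 28 pairs and at 94.4% of single TSSs, and this difference of 5.57 points (interval -6.66 to 8.64) could not be told from 0 either. Below 0.4 lay only 38 pairs. From 0.2 to 0.4 a peak was at 7 of 28 pairs and at 257 of 3661 single TSSs (7.02%), and below 0.2 at 3 of 10 pairs and at 24 of 4571 single TSSs (0.525%). Weighted to the GC content of the pairs, single TSSs had a peak at 65.0%, and weighted to their CpG observed over expected at 77.4%, an alternative chosen after the data were seen. The difference between pairs and single TSSs was thus much smaller at like CpG content, where 91.0% stood against 77.4%. The levels of the transcripts were not analysed here.

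**Figure D2:**
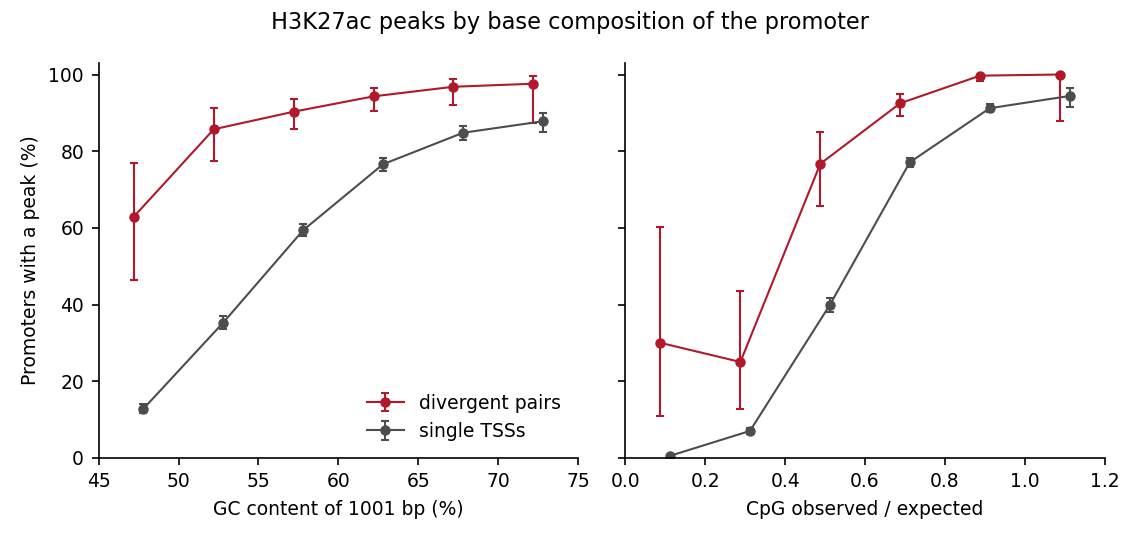
The share of promoters with a peak (%) is plotted against GC content (left) and CpG observed over expected (right) of the promoter window, for divergent pairs (red) and single TSSs (grey), with 95% Wilson intervals. The red points lie above the grey in every class, and the gap narrows from 50.1 points at 45 to 50% GC to 9.77 points at 70 to 75%.

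The genes that share a promoter were counted by function. Of 134 genes of DNA replication and repair, 40 (29.9%) started in a divergent pair, against 7.29% of all protein-coding genes, and the 40 pairs they formed all had a peak, beside 91.0% of all pairs. Single TSSs of this list had one at 74 of 84 (88.1%). Genes of respiratory complex I, which passes electrons from NADH into the mitochondrial chain, were in pairs for 10 of 35 (28.6%), with a peak at 10 of 10 pairs. Pairs also held 8 of 27 RNA polymerase subunits, 16 of 76 mitochondrial ribosomal proteins, 7 of 37 aminoacyl-tRNA synthetases and 5 of 29 mediator subunits, with a peak at 7 of 8, 16 of 16, 7 of 7 and 5 of 5 pairs. These counts stand beside 91.0% of all pairs, and in lists this small they say little of a difference from it. Cytosolic ribosomal proteins were in pairs for 9 of 79 genes and proteasome subunits for 6 of 49. In each of these 8 lists at least 86.5% of the single TSSs also had a peak, so the shares at pairs were read against a high level at single TSSs.

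Of 33 retinal progenitor factors, transcription factors and signals such as Pax6 and Rax, 0 started in a divergent pair, beside 7.29% of all protein-coding genes. In a list this small, as in that of the Hox genes below, such a count says little of a difference from that share. The list does not hold every such factor, since Nr2e1 is in a pair but not in the list. Of the 31 single TSSs of the list, 24 had a peak (77.4%), beside 42.1% of all single TSSs. Of 40 Hox genes, which pattern the trunk and limbs, 1 was in a pair, and a peak was found at none of 37 single Hox TSSs nor at that pair. Zinc finger genes named Zfp were in pairs for 18 of 357 (5.04%), with a peak at 15 of 16 pairs and at 232 of 330 single TSSs (70.3%). Replication-dependent histones, whose genes are clustered and often divergent, were in pairs for 27 of 67 genes, the highest share of the lists (40.3%), and 13 of 14 of their pairs had a peak (92.9%), beside 34 of 36 of their single TSSs (94.4%). Over all genes a peak was at 91.0% of pairs and 42.1% of single TSSs. The counts at Zfp and histone pairs are near the former share.

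The pairs without a peak within these lists were looked up after the counts were known. They were Polr3g/Mblac2 among the RNA polymerase subunits, Rnf151/Rps2 among the cytosolic ribosomal proteins, Gm17649/Hoxc13 among the Hox genes, Zfp558/Mbd3l1 among the zinc finger genes, and Hist1h2ba/Hist1h2aa among the histones, the last of which encode testis-specific variants.

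The peaks at pairs were longer than those at single TSSs but not higher. The median length was 1405 bp at pairs (interval 1339 to 1439, n = 703) and 1052 bp at single TSSs (interval 1036 to 1068, n = 7840), and the quartiles were 1122 and 1716 bp against 696 and 1480 bp. Short peaks in particular were few, since 6.54% of the members fell in the shortest 25% of all peaks. The longest peaks were not at pairs, where the maximum was 5162 bp against 32865 bp at single TSSs. The median fold enrichment over the isotype control was 4.78 at pairs (interval 4.69 to 4.87) and 4.75 at single TSSs (interval 4.71 to 4.78), and the median pileup, the scaled mean depth over the peak, was 16.6 in both. Among the highest 10% of all peaks by fold enrichment were 9.10% of the members, and among the lowest 10% were 4.41%. The stricter limits were met by 565 members (80.4%) and by 5883 of the 7840 peaks at single TSSs. Weighted to the CpG content of the pairs, the median length at single TSSs was 1113 bp, which still lay below the interval at pairs, and the median fold enrichment was 4.86. The near equality of height had no firm order, since with strict peaks alone, with peaks that overlap a TSS or the interval between both, and with the CpG weighting the median fold enrichment was slightly higher at single TSSs (5.13, 4.90 and 4.86) than at pairs (5.09, 4.79 and 4.78).

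**Figure D3:**
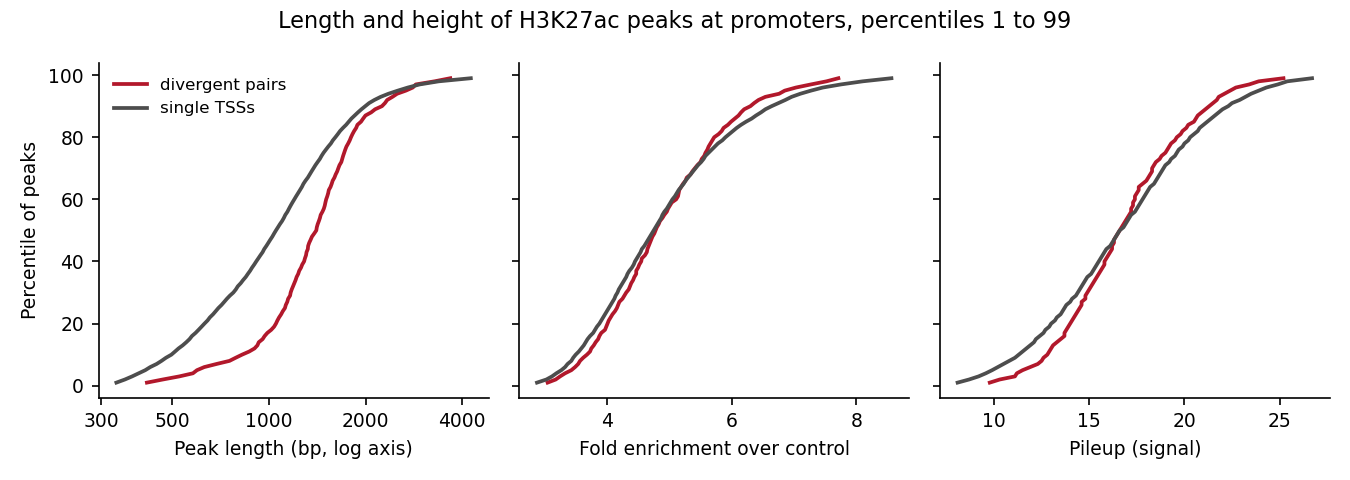
Percentiles 1 to 99 of peak length (bp, log axis), fold enrichment over the isotype control and pileup are plotted for peaks at divergent pairs (red) and single TSSs (grey). The length curves separate, with medians of 1405 and 1052 bp, while those of fold enrichment (4.78 and 4.75) and pileup nearly coincide.

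Each of these 718 pairs had 1 peak and no more. A single peak covered both TSSs at 631 of them, or 87.9% (interval 85.3 to 90.1%). It covered the minus-strand TSS only at 31 pairs, the plus-strand TSS only at 20 and neither at 36. In the latter the peak lay on the side of the minus-strand gene at 19 pairs and on that of the plus-strand gene at 17, and its median length was 574 bp against 1453 bp for peaks over both starts, while the median fold enrichment was 4.60 against 4.79. Separate peaks over the facing promoters could hardly be seen, since broad calling joins nearby stretches and the smallest gap between any peaks of the list was 1253 bp. Of the 115 pairs beyond the limit, 6 had more than 1 peak.

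Peak length followed the TSS distance. The median length rose over the 5 distance classes from 1286 bp in pairs up to 100 bp apart, over 1408, 1448 and 1551 bp, to 1702 bp (interval 1538 to 1793) above 500 bp apart. The share of pairs in which 1 peak covered both TSSs fell from 94.1% (interval 90.6 to 96.3%) through 91.3%, 87.6% and 84.4% to 58.6% (interval 46.9 to 69.4%). The intervals of the first and last class do not overlap in either measure. The median fold enrichment was between 4.63 and 4.83 in the 5 classes, with overlapping intervals. The reach of the peak beyond a TSS it covered, into the gene, stayed near 600 bp, with medians of 610, 632, 596, 591 and 675 bp.

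**Figure D4:**
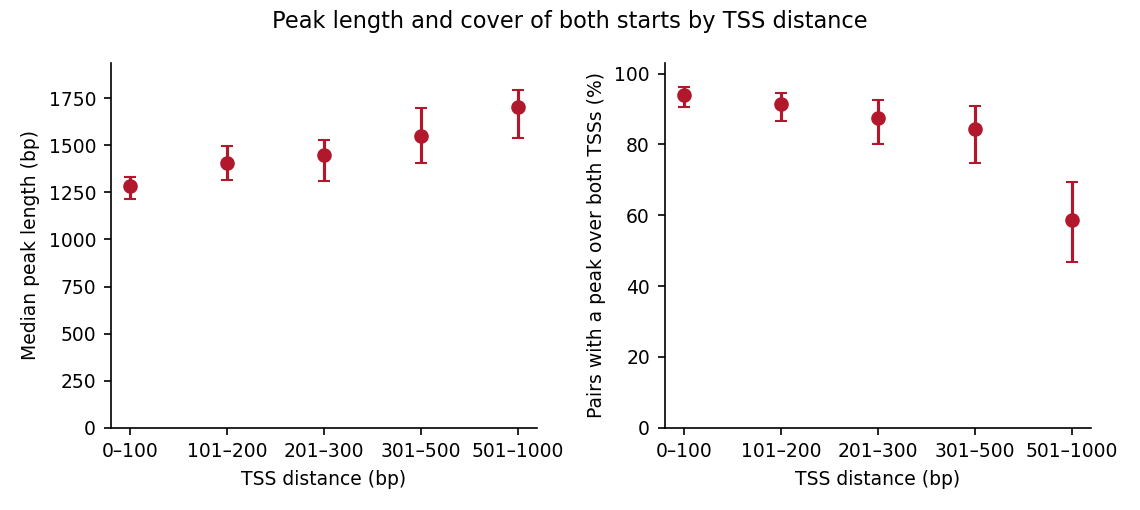
The median peak length (bp, left, with 95% order-statistic intervals) and the share of pairs with a peak in which it covers both TSSs (%, right, with 95% Wilson intervals) are plotted for 5 classes of TSS distance. Length rises from 1286 to 1702 bp and the share falls from 94.1% to 58.6%.

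Around a single TSS the peak lay mostly downstream. It reached a median of 733 bp into the gene (interval 723 to 745) and 431 bp upstream (interval 422 to 440, n = 6205 covered TSSs), and at 79.8% of these TSSs it reached further downstream. At pairs the reach into the gene was 618 bp on the minus-strand side and 612 bp on the plus-strand side, or 615 bp over both (interval 603 to 631, n = 1313 covered TSSs). It was thus shorter than the downstream reach at a single TSS. The peak as a whole was longer at pairs, also among peaks that overlap a TSS or the interval between both (median 1427 against 1175 bp). The plus-strand reach was the longer at 331 of 631 pairs (52.5%, interval 48.6 to 56.3%), and the side of the longer gene had the longer reach at 309 of 631 (49.0%, interval 45.1 to 52.9%). Neither share could be told from an even split. Over all 718 pairs with a peak, covered or not, the centre of the peak lay a median of 138 bp from the midpoint of the pair. No side was preferred (signed median 7.25 bp towards the plus-strand gene, interval -10.5 to 26.5). At the 6205 single TSSs that a peak covered, its centre lay a median of 170 bp downstream. The reaches to either side differed by a median of 237 bp at pairs and 400 bp at single TSSs.

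**Figure D5:**
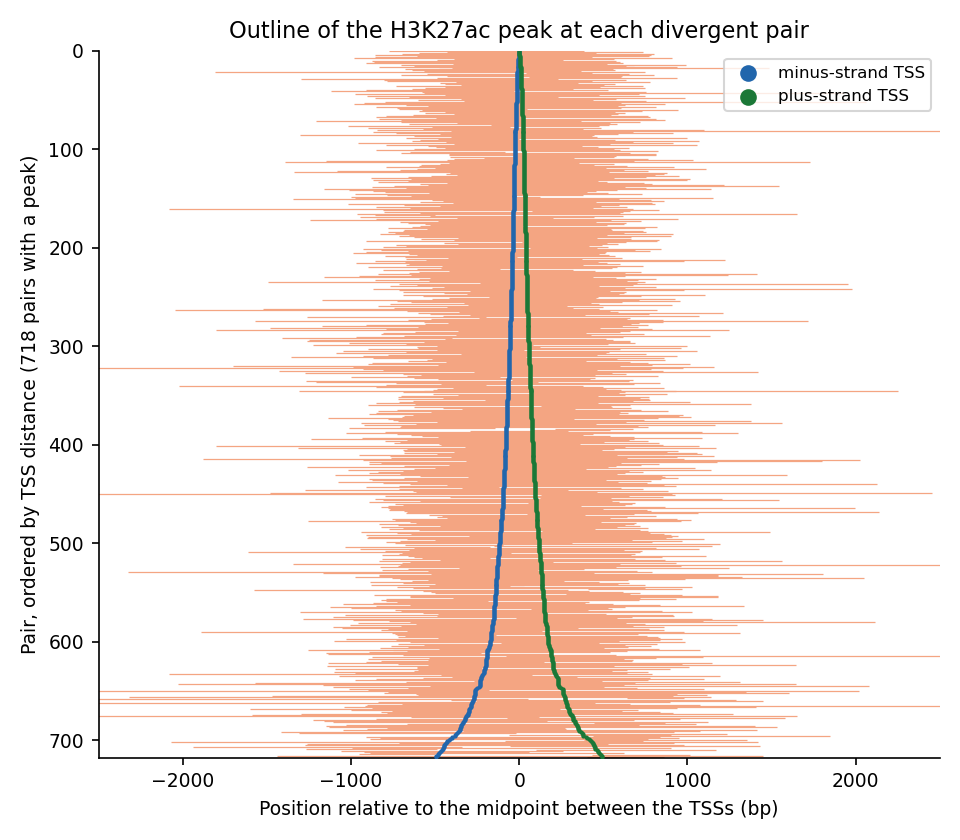
Each horizontal line is the E14 H3K27ac peak at 1 of 718 divergent pairs, drawn in bp from the midpoint between the TSSs and ordered from the smallest TSS distance (top) to the largest; blue and green points mark the minus- and plus-strand TSSs. The peaks span both starts at 631 pairs, single peaks can reach much further to one side (the reaches differ by a median of 237 bp), and 10 of them run past the drawn range of 2500 bp.

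The 5 members with the highest fold enrichment began with Recql/Golt1b on chromosome 6, whose TSSs at 142335607 and 142335741 are 134 bp apart. Recql is a RecQ family DNA helicase and Golt1b a Golgi transport protein. Their peak, chr6:142335279-142336535, had a fold enrichment of 8.46 and a pileup of 17.4 over 1257 bp, and reached 794 bp into Golt1b but 328 bp into Recql. Hras1/Lrrc56 followed with 8.06, and here the peak of 870 bp ended before both TSSs, within the Hras1 gene, which encodes a RAS GTPase. Zranb3/R3hdm1 (8.06), where Zranb3 acts at stalled replication forks, and Tgfbrap1/AI597479 (7.95) came next. Slc39a7/Rxrb, a zinc transporter and a retinoid X receptor, had a fold enrichment of 7.90, a pileup of 22.4 and a length of 1918 bp. These 5 values lie inside the range of single TSSs, whose maximum was 11.1. By pileup the leading pairs were Pcmt1/Lats1 (27.7), Arcn1/Ift46 (27.1) and Hnrnph3/Pbld2 (26.7), of which the peak at Arcn1/Ift46 was only 596 bp long and covered neither TSS.

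The longest members were less even around the pair. The peak at 5031425E22Rik/Mll5 was 5162 bp long and reached 2882 bp to the left and 1757 bp into Mll5, which encodes a chromatin protein. At Nr2e1/Ostm1 the peak, chr10:42299367-42304440, covered 5074 bp, of which 4071 bp lay beyond the TSS of Nr2e1, the nuclear receptor TLX of retinal and neural progenitors, and 812 bp beyond that of Ostm1, a protein of lysosomes and osteoclasts. The difference of 3259 bp was the greatest among the 631 pairs. The fold enrichment of this long peak was 3.62, below the lower quartile of the members (4.16). The peak at Marcks/5930403N24Rik was 4902 bp long and reached 2933 bp over Marcks, an actin-binding substrate of protein kinase C. At E130018O15Rik/Hmx1 the peak of 4711 bp did not cover the TSS of E130018O15Rik and reached 4438 bp over Hmx1, a homeobox gene of eye and ear development. Gm10655/Tle3, with a Groucho family co-repressor, had a peak of 3938 bp, of which 2358 bp lay over Tle3.

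The closest pairs with a peak were 1 pair 1 bp apart and 4 pairs tied at 3 bp, and at all 5 the peak covered both TSSs. Tubgcp2/Zfp511, 1 bp apart, had a peak of 1158 bp with a fold enrichment of 4.99. Ndufs1/Eef1b2, a core subunit of complex I and an elongation factor, are 3 bp apart and had a peak of 1497 bp with a fold enrichment of 6.06. Mrps21/C920021L13Rik, also 3 bp apart, had one of 1052 bp with 6.20, Slc7a6os/Prmt7 one of 1644 bp with 5.45 and Dhrs1/2610027L16Rik one of 1166 bp with 5.81. At the limit of 1000 bp, the last pairs inside were Btf3l4/Txndc12 and Pdzd7/Sfxn3, both 987 bp apart. The first had a peak of 2892 bp over both TSSs, and the second one of 461 bp over the TSS of Sfxn3 only. The first pairs outside were Nacc1/Trmt1, 1004 bp apart with separate peaks of 1411 and 592 bp, and Atg14/Gm6616, 1008 bp apart with a peak of 650 bp.

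Of 14 divergent gene pairs familiar from textbooks, 6 met the rule and all 6 had a peak, beside 91.0% of all pairs. The peak at Wrap53/Trp53, a telomerase protein and p53, was 3288 bp long and reached 1521 and 1662 bp to the sides, with a fold enrichment of 5.28. That at Brca1/Nbr1, a factor of homologous recombination and an autophagy receptor, was 2355 bp long with 4.46 and reached 1446 bp over Nbr1 and 714 bp over Brca1. Atm/Npat, a DNA damage kinase and a co-activator of histone genes, had a fold enrichment of 6.38 over 1869 bp. Mcm4/Prkdc, a subunit of the replicative helicase and the DNA-PK catalytic subunit, had 4.58 over 1794 bp, and Mrps12/Sars2, a mitochondrial ribosomal protein and the mitochondrial seryl-tRNA synthetase, had 5.18 over 1265 bp. At Gart/Son, of purine synthesis and splicing, the peak of 1711 bp began just beyond the TSS of Gart and covered that of Son only. Another 7, Hspd1/Hspe1 and Surf1/Surf2 among them, have 5′ ends that overlap in this annotation and so do not meet the rule. Of these, Psmb9/Tap1, an immunoproteasome subunit and a peptide transporter, had no peak. Over all places with such an overlap, 88.5% had one. The starts of the remaining pair, Tk1/Afmid, lie more than 1000 bp apart in this annotation.

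Among the lists, high fold enrichments of DNA replication and repair after Recql were at Vps35/Orc6 (7.53, with a subunit of the origin recognition complex) and Acot13/Tdp2 (6.68, with a phosphodiesterase that removes topoisomerase 2 from DNA ends). The 40 pairs of this list ranged from 3.15 to 8.46, with a median of 4.68 beside 4.78 for all pairs. Psma7/Ss18l1 led the proteasome subunits with 7.32, Mrpl49/Fau the mitochondrial ribosomal proteins with 7.08, and Rpl36al/Mgat2 the cytosolic ones with 7.08. Polr1c/Yipf3 led the RNA polymerase subunits with 6.14, S100pbp/Yars the synthetases with 6.02 and AA474408/Zfp143 the zinc finger genes with 6.86. Histone pairs had the highest median length of the lists, 2393 bp. By fold enrichment Gm17658/Hist1h4d led them with 5.51, over a peak of only 522 bp that covered neither TSS. Hist1h2ac/Hist1h2bc had a peak of 2393 bp with a fold enrichment of 5.25, Hist1h2bh/Hist1h3f one of 2551 bp with 5.05 and Hist2h2ac/Hist2h2be one of 2328 bp with 4.75. Histone genes are near-identical copies, and only uniquely mappable reads were kept.

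The 71 pairs without a peak differed in composition from the rest. Their median GC content was 56.3% (interval 53.7 to 58.1) against 60.7% of the pairs with a peak, and their median CpG observed over expected was 0.525 (interval 0.386 to 0.593) against 0.793. A symbol of the clone type, such as those that begin with Gm or end in Rik, was held by 27 of the 71, and by 209 of all 789 pairs. Among the 209 pairs with such a symbol, 182 therefore had a peak. Without these pairs the share with a peak was 92.4%, close to the 91.0% of all pairs. By TSS distance the closest pairs without a peak were Wdr54/1700003E16Rik (7 bp), Tmem205/Ccdc159 (9 bp), Vps53/Fam57a (24 bp), Plcd3/Acbd4 (24 bp) and Pex11a/Wdr93 (32 bp), whose CpG observed over expected were 0.593, 0.484, 0.588, 0.705 and 0.631. Several others, named after their values were seen, hold genes known for tissues other than retina, such as Col4a4/Col4a3 and Kirrel2/Nphs1 of the kidney glomerulus, Duox2/Duoxa2 of the thyroid, Plcz1/Capza3 of sperm and Smyd1/Cd8b1 of muscle and T cells. These are examples only, since such genes were not counted at pairs with or without a peak. The absence of a peak says only that none was called at this depth.

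The 8 words were counted on both strands from 250 bp before to 50 bp after the TSS. The ETS word CCGGAAG was present at 27.8% of the plus-strand genes of pairs (218 of 784) and 28.7% of the minus-strand genes, against 9.14% of single TSSs, 17.6% of single TSSs with a peak and 10.9% of all protein-coding starts. The YY1 word was at 5.99% of plus-strand genes (4.50% of minus-strand genes), 1.53% of single TSSs and 1.84% of all starts. The NRF1 word was at 5.10% of plus-strand genes, 1.90% of single TSSs and 2.13% of all starts, the ZNF143 word at 2.04%, 0.703% and 0.794%, and the CRE at 4.34%, 2.16% and 2.31%. For these last 3 words single TSSs with a peak were at 3.96%, 1.29% and 3.99%, and the upper bounds of their intervals (4.41%, 1.56% and 4.45%) lay above the lower bounds at the plus-strand genes of pairs (3.77%, 1.26% and 3.12%), so that these intervals overlapped. The TATA word was rarer at pairs, with 4.97% against 14.5% and 13.5%, but single TSSs with a peak were at 6.10%. In the wider window, from 500 bp before to 100 bp after the TSS, the TATA word was at 7.78% of pairs and 28.0% of single TSSs. The GC box was at 68.2%, 41.1% and 43.7%, and single TSSs with a peak were at 68.8%, as high as the pairs. The CCAAT box was at 41.2%, 37.5% and 37.6%, but in the wider window it was at 55.2% of pairs and 57.5% of single TSSs, the opposite order. Pairs with a peak had the ETS word at 29.5% and the YY1 word at 6.59%, against 17.6% and 3.12% of single TSSs with a peak. For the YY1 word this holds for the plus-strand genes, since the interval at the minus-strand genes of all pairs (3.25 to 6.19%) overlapped that of single TSSs with a peak (2.76 to 3.53%). The windows of both genes of a pair overlap and the words follow base composition in part, so that these shares are descriptions.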

How the data were processed

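H3K27ac was measured by ChIP-Seq in E14 retinas. Per the study's methods and the file header, the authors used Bowtie2 for alignment to mm9 and retained reads that mapped uniquely. Their broad peak calls, on 2 pooled libraries against 1 isotype control, came from MACS 2.1.0.20140616 with a broad cutoff of 0.1, and duplicates beyond 1 tag at a position were dropped. The depth of each library is not given in the sources used here. The deposited pileup is a signal: the mean coverage of each peak once the deeper library, the ChIP, had been brought to the size of the control. The deposited fold enrichment is the ratio of ChIP pileup to local control background. The −log10 p and −log10 q values were averaged over each peak by the authors' MACS2 run, and the deposited length is in bp. Scaling 113543038 tags to 9210563 makes the control the coarser of both.

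Gene starts were the 5′ ends of protein-coding gene records in GENCODE vM1, and all peaks lay within the mm9 chromosomes. Overlap needed 1 bp. A peak counted once per class, and those at pairs were left out of the single class. Reach was the distance from a covered TSS to the end of the peak. GC content and CpG observed over expected came from the mm9 sequence. The method was tested on simulated data with planted pairs and peaks. Members and gene lists were chosen with earlier results of these data known. Pairs were named by rank in fold enrichment, length, pileup and TSS distance, by membership of a textbook list, and as the highest of each gene list. Alternatives were strict peaks, other windows, pair limits, transcript starts, joined peaks, other definitions of a single TSS, weighting by composition and, added later, the CpG weighting and pairs without clone-type symbols. Python 3.11.15, numpy 2.4.6, pandas 2.3.3, scipy 1.17.1 and matplotlib 3.10.9 were used. No other sample was used here, and the values of a few named pairs are not reported here.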

Additional observations from a re-analysis of the deposited data

How the results depend on the processing

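No result changed its direction between pairs and single TSSs except where stated in the report for fold enrichment, pileup and the CCAAT box. With strict peaks, 73.3% of pairs and 31.6% of single TSSs had a peak, the median lengths were 1454 and 1153 bp, the fold enrichments 5.09 and 5.13, the pileups 17.1 and 17.5, the reach of pairs 646 bp, and that of single TSSs 778 bp downstream and 448 bp upstream. Without extension of the windows the shares were 86.4% and 33.0%, and the medians at single TSSs were 1175 bp, 4.90 and 17.0. With an extension of 1000 bp the share of single TSSs was 42.9%, and without a non-coding start within 1000 bp 40.5%. Weighted to GC content, single TSSs had a share of 65.0%, a length of 1086 bp, a fold enrichment of 4.78 and a pileup of 17.0. Weighted to CpG content these were 77.4%, 1113 bp, 4.86 and 17.3, and the reach was 756 bp downstream and 450 bp upstream. Pairs within 200 bp had a median length of 1323 bp and 92.9% covered at both starts, and those within 500 bp 91.0%. The other 46 values of these measures under alternatives moved by less than their intervals. Of the word shares, 13 moved by more, all upwards in the wider window except 1, the YY1 word at the minus-strand genes of pairs (4.50%). The TATA word moved to 7.78% of pairs and 28.0% of single TSSs. Joining peaks at most 500 bp apart changed nothing, since none were that close. Leaving out a replicate was not possible, since the libraries were pooled. No paired analysis was possible because the peak list has no replicate values.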
